A study of Rattus norvegicus with 12 samples.

Results

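The comparison described here set 3 cultures of neonatal rat ventricular cardiomyocytes given an adenovirus for the MEF2C form labelled γ- against 3 untreated cultures. It used 6 of the 12 arrays of the series, and the other 6 came from cultures given adenovirus for mef2Cγ+ or for a form labelled mef2Cγ+23/24. Its members were all probe sets with a single gene symbol, which gave 10025 genes after a filter on low levels. The cells came from newborn Wistar rats. They were plated for 44 h in medium with 10% horse serum and 5% fetal bovine serum and then held for 24 h in medium free of serum, and 2 µg of total RNA was labelled for each array. All 4 groups (control, γ-, γ+ and 23/24, with 3 arrays each) shared these conditions. No culture received a virus without an insert, so the γ- form and the adenovirus that carried it cannot be told apart in this comparison. The labels do not define 23/24, and they do not say whether replicates 1 to 3 were separate cell isolations, so p-values measure only the spread between these samples.

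MEF2C is a transcription factor of the myocyte enhancer factor 2 family, which binds an A- and T-rich DNA sequence in the promoters and enhancers of muscle genes. It takes part in forming the heart and in switching on contractile genes, and class II histone deacetylases bind and silence it until calcium and kinase signals release them. Alternative splicing includes or leaves out the γ segment, a region known to repress the factor's activity, so the γ- form lacks that region. In neonatal ventricular cells the family is best known for driving contractile, metabolic and stress-response genes.

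The values are deposited array levels taken as log2, so a difference of 1 is a doubling. Array medians lay between 5.41 and 5.46 in the control and between 5.40 and 5.44 in the γ- group. Across all probe sets, the difference between 2 control arrays had a standard deviation of 0.22 to 0.27, that between 2 γ- arrays 0.22 to 0.24, and that between a control and a γ- array 0.29 to 0.33. Exactly equal values occurred within each of 3 sets of arrays (27 to 111 per pair in 21 of 21 pairs). The control and 23/24 arrays shared such values (30 to 69 in each of their 9 pairs), and the γ+ arrays formed a set of their own. In 0 of the 9 pairs of a control and a γ- array were there any, so the γ- arrays appear to have been normalized in a run of their own. No source used here names such runs, and the sets are inferred from equal values alone. A run of that kind and the γ- group cannot be told apart. The comparisons of γ- with 23/24, of γ- with γ+ and of γ+ with control likewise cross these inferred sets. Between 23/24 and control, which fall in the same set by equal values, limma called 0 of 10025 genes, and 899 had an unadjusted p under 0.05. Some probe sets outside these genes were called there and are given with the flagged results below. γ+ replicate 2 stood apart in the shared estimate of the spread, and counts are given with and without it.

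The check of the transgene was limited, since no probe set carried the symbol Mef2c. By limma, 0 of the 11 measured genes of the MEF2 family and its deacetylase and cofactor partners were called, 4 had an unadjusted p under 0.05 and 2 were called higher with the 6 compared arrays alone. Mef2a read 10.29, 10.30 and 10.33 on the control arrays and 10.25, 10.20 and 10.21 on the γ- arrays, a difference of -0.09 ± 0.05 (SE, n = 3 per group here and below) with a limma adjusted p of 0.254. The groups do not overlap for Mef2a, but the difference is small against its error. The difference was 0.08 ± 0.13 for Mef2d (limma adjusted p = 0.764) and 0.02 ± 0.13 for Mef2b (limma adjusted p = 0.964).

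Genes changed in both directions and mostly by little. Of the 10025 genes, 696 were called at a limma adjusted p under 0.05 (6.94%), with 307 higher (3.06%) and 389 lower (3.88%) in the γ- cultures. The balance of higher and lower calls turned under each other scaling tried, with 228 higher and 208 lower under median centring, 399 and 385 under quantile normalization, and 429 and 406 under cyclic loess. The median size of a called difference was 0.34 log2. Only 91 called genes differed by at least 0.5 log2, 39 of them higher and 52 lower, and 2 differed by at least 1. These were Myh1, which rose, and Mettl27, which fell. The median difference of all genes was -0.01. Without γ+ replicate 2 the count was 1665 (707 higher, 958 lower), and with the 6 compared arrays alone it was 1373 (592 higher, 781 lower). Leaving out a γ- array gave 267 to 284 calls and a control array 313 to 343. Of 139 called genes named by rule, 72 kept a limma adjusted p under 0.05 with each of the 12 arrays left out singly. Of 23 called genes named after their values or motif matches were seen, 2 did (Isg15 and Herc6). Genes that did not are marked in their paragraphs.

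**Figure D1:**
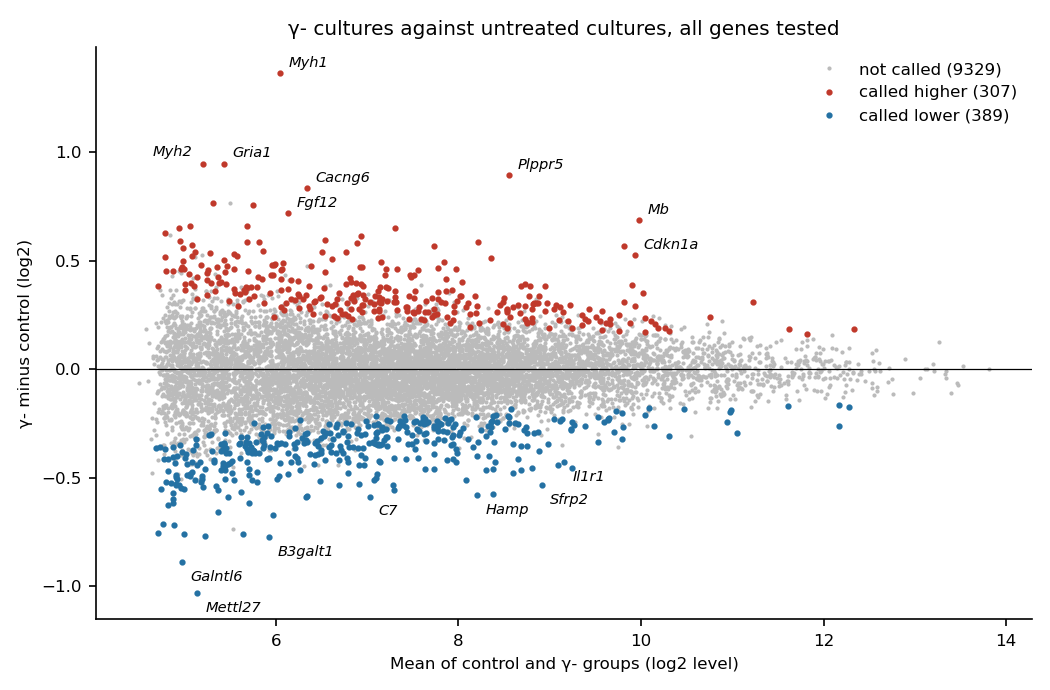
Difference between the γ- and control groups (vertical axis, log2) against the mean level of both groups (horizontal axis, log2) for the 10025 genes tested. Points are genes: 307 called higher in red, 389 called lower in blue and the rest in grey. Myh1 at 1.37 lies above all other genes and Mettl27 at -1.03 below them.

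The largest rise was that of Myh1, a myosin heavy chain of skeletal muscle, and 2 further such chains were called higher. Myh1, the fast type IIx chain of adult skeletal muscle, read 5.08, 5.57 and 5.44 in the control and 6.86, 6.62 and 6.70 in the γ- cultures. The groups lie far apart, with a difference of 1.37 ± 0.11 log2 (2.58-fold, limma adjusted p = 7.18e-06). Myh2, the fast type IIa chain, read 4.66, 4.83 and 4.68 against 5.63, 5.75 and 5.63. All 3 γ- arrays were above all 3 control arrays, by 0.95 ± 0.10 on average (limma adjusted p = 0.000171). Its control mean of 4.72 lies below the filter's level of 4.78, and the mean of its 3 other groups is 4.74, so Myh2 passed the filter only through the γ- group and its difference is set against a level near background. Myh3, the embryonic chain, read 5.38, 5.31 and 5.50 against 5.91, 6.06 and 5.98. It rose by 0.59 ± 0.08 (limma adjusted p = 0.00113), and all 3 calls held with each array left out. These chains are close paralogs, and reads of one another's RNA by their probe sets were not tested.

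Few other genes of skeletal muscle passed the test. Of the list of 11 myosin chains and relatives of skeletal and developing muscle, 9 were on the array and 6 passed the filter. All 6 had γ- arrays above the control arrays (over all genes tested the arrays did not overlap for 33.4%, with γ- higher for 14.4%), and 3 were called. Myl1, the fast alkali light chain, differed by 0.20 and Myh7b, a slow-type heavy chain, by 0.12, and neither passed the test. Myh4, the type IIb chain, did not pass the filter and read 4.02 ± 0.13 against 4.21 ± 0.04 (SD). In the skeletal muscle program, 16 of 29 genes on the array were tested and 1 was called (6.25%, against 6.94% of all genes). This was Mybpc2, the fast skeletal myosin-binding protein C. It was lower, at 6.57 ± 0.13 against 6.98 ± 0.10 (SD, limma adjusted p = 0.0465), a call lost without 10 of the 12 arrays in turn (adjusted p up to 0.164) and under median centring. The myogenic factors Myod1 and Myog did not pass the filter, and Myod1 had means of 4.47 in the control and 4.49 in the γ- group.

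The promoters of Myh1 and Myh2, which both lie on rat chromosome 10, are shown because Myh1 carries a match to the MEF2 consensus and its neighbour does not. RefSeq sequences of the GRCr8 assembly were used, covering 250 bases before to 50 after the gene start on the coding strand, and capitals mark the match. The Myh1 sequence is chr10:52384662-52384961, plus strand, and its match begins 212 bases before the start. The Myh2 sequence is chr10:52355489-52355788, plus strand. Its closest stretch to the Myh1 match, beginning 208 bases before the start, has 2 mismatches, T5C and T6C, counted from the first base of the Myh1 match as printed. A match is a description of letters and not a measured binding site.
Myh1: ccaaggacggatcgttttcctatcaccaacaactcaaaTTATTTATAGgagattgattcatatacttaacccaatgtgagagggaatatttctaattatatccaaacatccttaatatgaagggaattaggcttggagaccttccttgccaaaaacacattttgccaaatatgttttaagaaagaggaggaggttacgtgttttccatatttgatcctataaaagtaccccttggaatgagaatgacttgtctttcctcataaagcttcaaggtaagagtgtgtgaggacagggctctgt
Myh2: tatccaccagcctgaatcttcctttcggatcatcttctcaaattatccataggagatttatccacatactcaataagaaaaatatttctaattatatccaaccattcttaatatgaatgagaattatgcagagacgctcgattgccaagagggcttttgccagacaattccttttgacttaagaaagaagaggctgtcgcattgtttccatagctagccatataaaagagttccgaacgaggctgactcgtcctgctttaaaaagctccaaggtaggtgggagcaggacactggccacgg

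A minority of reported MEF2 targets passed the test, though a larger share than of all genes. Of 49 listed targets, 41 were tested, 5 were called higher and 0 lower. That is 12.2% called, against 6.94% of all genes, of which 3.06% were called higher. The median difference was 0.02 against -0.01 over all genes. Mb, which encodes the oxygen store myoglobin, read 9.67, 9.70 and 9.55 in the control and 10.30, 10.31 and 10.37 in the γ- cultures. The arrays of each group lie close together and the groups are well apart (0.69 ± 0.07, limma adjusted p = 0.000138). Nr4a3, an orphan nuclear receptor of the immediate early class, read 5.83, 5.78 and 5.63 against 6.14, 6.22 and 6.33, a rise of 0.48 ± 0.08 (limma adjusted p = 0.0033). The other 3 called targets were smaller: Ppargc1a, the coactivator PGC-1α of mitochondrial genes, by 0.30 ± 0.07, Sgca, the α-sarcoglycan of the membrane complex of muscle, by 0.31 ± 0.07, and Myh6, the α-myosin heavy chain of the heart, by 0.19 ± 0.05. These 3 lost their calls without 5, 4 and 8 of the 12 arrays in turn (limma adjusted p up to 0.105, 0.0584 and 0.147), and Myh6 also under median centring.

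Few sarcomere genes of the cardiomyocyte passed the test. Among 27 sarcomere genes tested, Myh6 was called and no other (3.7%, against 6.94% of all genes), and the median difference was 0.01. Myh7, the slow cardiac heavy chain, differed by -0.04 ± 0.08, Acta1, the skeletal α-actin, by -0.09 ± 0.05, and Atp2a2, the calcium pump of the sarcoplasmic reticulum, by 0.04 ± 0.06. Nppa, the atrial natriuretic peptide, read 13.37, 13.39 and 13.30 against 13.31, 13.32 and 13.31, a difference of -0.04 ± 0.05 within the spread of the control. Nppb, the brain natriuretic peptide, read 13.04 on each control array and 12.95, 12.91 and 12.92 on the γ- arrays, and its difference of -0.11 ± 0.06 was not called (limma adjusted p = 0.296). Of 28 genes of calcium release and reuptake 1 was called (3.57%), the T-type calcium channel Cacna1g, lower by 0.27 ± 0.07. That call was lost under median centring and without 7 of the 12 arrays in turn (limma adjusted p up to 0.127). Of 15 intercalated disc genes limma called 0, also with the 6 compared arrays alone, and 0 had an unadjusted p under 0.05. Of 30 cardiac transcription factors 1 was called (3.33%), Hopx, an atypical homeodomain protein. It read 8.08, 8.07 and 8.10 in the control and 7.85, 7.70 and 7.76 in the γ- cultures (-0.31 ± 0.06, limma adjusted p = 0.00703).

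Gria1, Plppr5, Cacng6, Prex2 and Fgf12 were among the 8 largest rises. Gria1, the GluA1 subunit of AMPA-type glutamate receptors, read 4.87, 4.90 and 5.08 in the control and 5.985, 5.716 and 6.001 in the γ- cultures (0.95 ± 0.12, limma adjusted p = 0.000476). Gria1 also passed the filter only through the γ- group, since its 3 other groups have a mean of 4.77. Plppr5, a membrane protein related to lipid phosphatases and known from filopodia of neurons, read 8.01, 8.08 and 8.23 against 9.07, 8.92 and 9.02. The lowest γ- array is well above the highest control array (0.90 ± 0.06, limma adjusted p = 2.45e-06). Cacng6, a γ subunit of voltage-gated calcium channels, read 6.18, 5.97 and 5.64 against 6.82, 6.80 and 6.66 (0.83 ± 0.10, limma adjusted p = 0.000476). The γ- arrays are all higher here although the control arrays spread widely. Fgf12, an intracellular fibroblast growth factor homolog that binds voltage-gated sodium channels, rose by 0.72 ± 0.08, and Prex2, an activator of the GTPase Rac, by 0.76 ± 0.09 (limma adjusted p = 0.000171 and 0.000476).

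Calls in the ion channel and receptor families of these genes were few and went in both directions. Of 12 glutamate receptor genes tested (33 on the array), 1 rose and 1 fell (16.7% called, against 6.94% of all genes). The one that rose, Gria1, passed the filter only through the γ- group. The one that fell was Cacng4, an auxiliary subunit of AMPA receptors, at 5.58, 5.65 and 5.70 in the control and 5.05, 5.17 and 5.05 in the γ- cultures (-0.56 ± 0.10, limma adjusted p = 0.00514). Of 10 sodium channel genes, Fgf12 rose and Scn3b, a β subunit, fell by 0.24 ± 0.06. Of 20 potassium channel genes 10.0% were called. Kcnk1, a potassium leak channel, read 5.77, 5.70 and 6.02 in the control and 6.42, 6.25 and 6.21 in the γ- cultures (0.46 ± 0.09, limma adjusted p = 0.00854). Kcne1, a β subunit of the slow delayed rectifier, fell by 0.37 ± 0.10. The calls of Scn3b and Kcne1 were lost under median centring and without 6 and 7 of the 12 arrays in turn (limma adjusted p up to 0.125 and 0.136). Of 27 adrenergic pathway genes 1 was called (3.7%), Akap6, an anchoring protein for protein kinase A at the nuclear envelope. Akap6 rose by 0.27 ± 0.06 and lost its call without control replicate 1 or γ- replicate 1 (limma adjusted p up to 0.075).

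**Figure D2:**
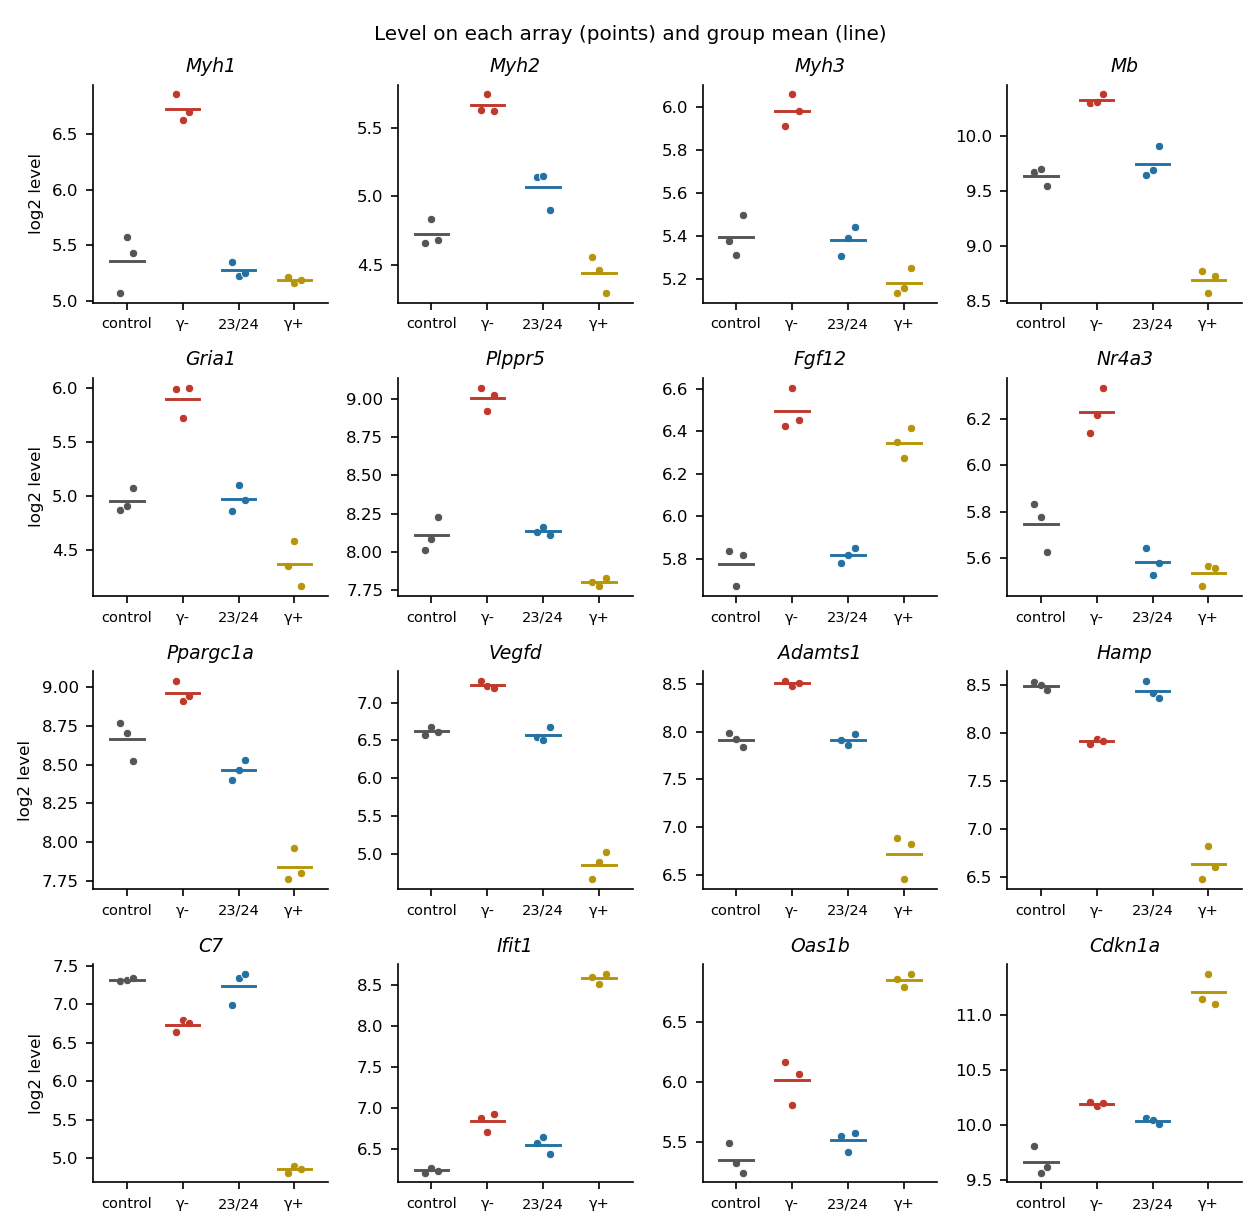
Levels (vertical axes, log2) of 16 genes on the 12 arrays, by group (horizontal axes): control, γ-, 23/24 and γ+. Points are arrays and lines are group means of 3 arrays. Myh1, Mb, Gria1, Plppr5, Vegfd and Adamts1 are highest in the γ- group, Hamp and C7 are lower there than in control, and Ifit1 and Oas1b lie between control and γ+.

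Vegfd, Adamts1 and Reg3b, which encode secreted proteins, were also among the 20 largest rises. Vegfd, a growth factor of lymphatic vessels, read 6.57, 6.68 and 6.62 in the control and 7.29, 7.23 and 7.20 in the γ- cultures (0.61 ± 0.09, limma adjusted p = 0.00111). Adamts1, a metalloprotease of the extracellular matrix, read 7.98, 7.93 and 7.84 against 8.53, 8.47 and 8.51 (0.59 ± 0.09, limma adjusted p = 0.00166). Both genes have tight and separate groups. Reg3b, a secreted C-type lectin, rose from 6.95, 7.02 and 6.97 to 7.63, 7.65 and 7.61 (0.65 ± 0.08, limma adjusted p = 0.000342). Other members of the 20 largest rises were Nfe2, a transcription factor of blood cells (0.77 ± 0.12), Atl1, the GTPase atlastin-1 that shapes the endoplasmic reticulum (0.63 ± 0.10), Uncx, a homeobox factor (0.59 ± 0.12), and Prss2, a trypsinogen (0.66 ± 0.13). The rise of Uncx was not called without γ- replicate 2 (limma adjusted p = 0.0563). Smim8 and Prp15 complete this group and lost their calls without 5 and 7 of the 12 arrays in turn (limma adjusted p up to 0.0766 and 0.138), and a second probe set of Prp15 differed by -0.11. Among these 20 genes, 5 had a control mean below the filter's level of 4.78, and Atl1 and Uncx, like Gria1 and Myh2, passed the filter only through the γ- group.

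The largest falls were mostly genes at low levels. In 9 of the 20 the γ- mean lay below the filter's level of 4.78, where array values carry more background. Cldn9, Pde9a and Ccdc103 passed the filter only through the control group. Mettl27, a methyltransferase-like protein, read 5.38, 5.76 and 5.81 in the control and 4.48, 4.47 and 4.90 in the γ- cultures (-1.03 ± 0.16, limma adjusted p = 0.00159). Galntl6, a homolog of mucin-type glycosyltransferases, fell by 0.89 ± 0.13, but its second probe set differed by 0.12 and was not called. B3galt1, a galactosyltransferase, read 6.13, 6.22 and 6.57 against 5.33, 5.48 and 5.79 (-0.77 ± 0.15, limma adjusted p = 0.00774). Suv39h1, a histone H3 lysine 9 methyltransferase, fell by 0.67 ± 0.11 on the probe set used, while its other probe set differed by 0.34 in the opposite direction, and the mean over both was not called. Of 32 olfactory, vomeronasal and taste receptor genes tested (12.5% called, against 6.94% of all genes), Or2h1, Olr1433 and Or1f20d were lower and Or2ak5 higher (-0.57 to 0.50). They lost these calls without 7, 7, 3 and 2 of the 12 arrays in turn (limma adjusted p up to 0.16, 0.158, 0.055 and 0.0589). Further falls at low levels were Clec2d2, Cldn9, Krt31, Ccdc103, Lrtomt, Fdxacb1 and Grk1 (-0.77 to -0.60), of which Fdxacb1 and Grk1 lost their calls without 5 and 3 of the 12 arrays in turn (limma adjusted p up to 0.105 and 0.0579).

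The other falls among the 20 were of genes with unlike roles. Ace, the angiotensin-converting enzyme, read 6.12, 6.03 and 5.89 in the control and 5.35, 5.41 and 5.43 in the γ- cultures (-0.62 ± 0.12, limma adjusted p = 0.00792). P2ry1, a receptor for extracellular ADP, fell by 0.66 ± 0.10 and Pde9a, a phosphodiesterase that breaks down cyclic GMP, by 0.71 ± 0.10 (limma adjusted p = 0.00187 and 0.00113). Kcnmb4, a β subunit of the large-conductance potassium channel, fell by 0.59 ± 0.11. Cdkl3, a kinase related to the cyclin-dependent kinases, read 6.06, 5.99 and 6.01 against 5.34, 5.22 and 5.23 (-0.76 ± 0.09, limma adjusted p = 0.000293). Pomgnt2, an enzyme that builds the glycans of dystroglycan, fell by 0.59 ± 0.09 and Tent5d, a poly(A) polymerase of a small family, by 0.59 ± 0.08.

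**Figure D3:**
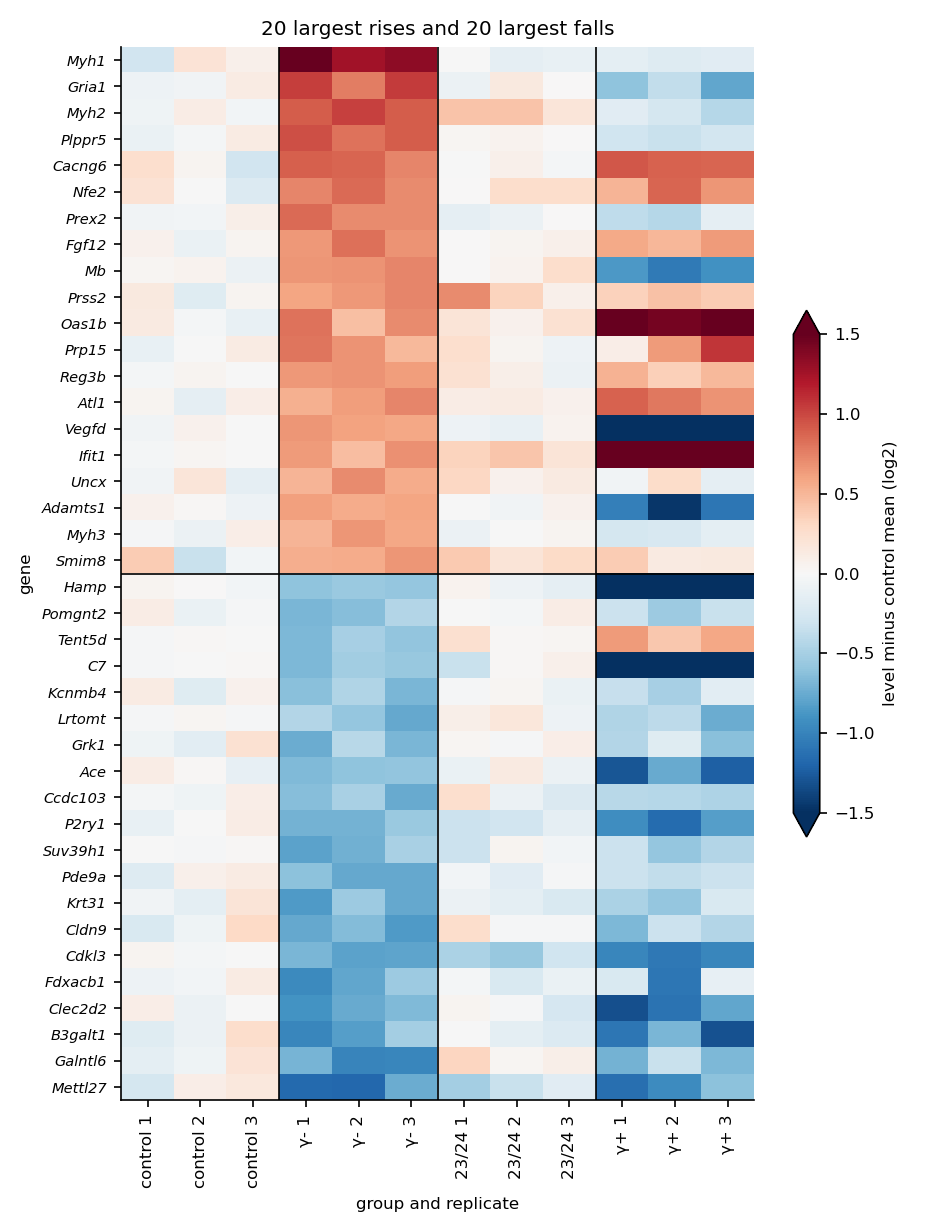
Level on each of the 12 arrays (columns, by group and replicate) minus the control mean (colour, log2, scale from -1.5 to 1.5) for the 20 largest rises and 20 largest falls of the γ- group (rows). The γ- columns are of one colour within each block by choice of the genes, while the γ+ columns are of both colours among the rises and blue for 19 of 20 falls.

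Some acute-phase proteins and the receptors for interleukins 1 and 6 fell in the γ- cultures. This list was drawn up after the values were seen, so its count is a description. Of its 22 genes tested, 0 were higher and 9 were lower (40.9% called, against 6.94% of all genes), with a median difference of -0.21. Hamp, which encodes the iron hormone hepcidin, read 8.53, 8.50 and 8.45 in the control and 7.89, 7.93 and 7.92 in the γ- cultures (-0.58 ± 0.08, limma adjusted p = 0.000831). C7, a late component of complement, read 7.31, 7.32 and 7.34 against 6.65, 6.80 and 6.76 (-0.59 ± 0.09, limma adjusted p = 0.00187). Il1r1, the signalling receptor for interleukin 1, read 9.35, 9.38 and 9.40 against 9.02, 8.90 and 8.91 (-0.43 ± 0.05, limma adjusted p = 0.000476). In each of these 3 genes the γ- arrays lie well below the control arrays. Il6r, the interleukin 6 receptor, fell by 0.34 ± 0.08 and lost its call without 5 of the 12 arrays in turn (limma adjusted p up to 0.075). The other 5, named after their values were seen, were Lbp, Lcn2, Serpina3n, Slpi and A2m (-0.39 to -0.35), which lost their calls without 3 to 7 of the 12 arrays in turn (limma adjusted p up to 0.158). Under median centring 7 of the 22 were called.

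Most chemokines and inflammatory mediators that changed were lower. Of 31 genes of NF-κB inflammation tested, 7 were lower and 2 higher (29.0% called, against 6.94% of all genes), with a median of -0.10. Cxcl1, a neutrophil chemoattractant, read 8.50, 8.67 and 8.64 in the control and 8.15, 8.07 and 8.21 in the γ- cultures (-0.46 ± 0.07, limma adjusted p = 0.00187). Ccl7, which attracts monocytes, fell by 0.46 ± 0.06 and Cxcl6, another neutrophil chemokine, by 0.52 ± 0.09 (limma adjusted p = 0.00095 and 0.0033). In the other direction Cxcl10, an interferon-induced chemokine, rose from 8.25, 8.40 and 8.34 to 8.73, 8.66 and 8.59 (0.33 ± 0.06, limma adjusted p = 0.00792), and Vcam1, named after its value was seen, also rose (0.35), a call lost without 6 of the 12 arrays in turn (limma adjusted p up to 0.135). Under median centring 4 were lower and 2 higher.

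Some antiviral genes induced by interferon were higher. Of 47 tested, 10 rose and 1 fell (23.4% called, against 6.94% of all genes). The median difference was 0.15 against -0.01 over all genes. Ifit1, which binds foreign RNA, read 6.21, 6.27 and 6.23 in the control and 6.88, 6.70 and 6.92 in the γ- cultures (0.60 ± 0.08, limma adjusted p = 0.000476). Oas1b, of the oligoadenylate synthetase family, read 5.50, 5.32 and 5.25 against 6.17, 5.81 and 6.07 (0.66 ± 0.10, limma adjusted p = 0.00143). Eif2ak2, the RNA-activated kinase PKR, read 7.74, 7.79 and 7.71 against 8.19, 8.02 and 8.14 (0.37 ± 0.06, limma adjusted p = 0.00187). The γ- arrays of these 3 genes are all above the control arrays. Ifitm2, a membrane protein that restricts virus entry, was the one that fell, by 0.46 ± 0.08 (limma adjusted p = 0.00266). The others that rose, named after their values were seen, were Isg15, Herc6, Oas1i, Oasl2, Usp18, Irgm and Gbp5 (0.24 to 0.44), and the Oas genes are close paralogs. Of these 7, Oas1i, Oasl2, Usp18, Irgm and Gbp5 lost their calls without 3 to 9 of the 12 arrays in turn (limma adjusted p up to 0.166). Of 27 nucleic acid sensors and interferon signalling genes limma called 0, with a median of -0.02. Of these 27, 11 had an unadjusted p under 0.05, and with the 6 compared arrays alone 4 were higher and 4 lower. Under median centring 9 of the 47 were higher and 1 lower.

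The interferon genes were higher still in the γ+ cultures, which shared no array with the γ- cultures but shared the control. Ifit1 had a mean of 6.24 in the control, 6.55 in the 23/24 group, 6.83 in the γ- group and 8.59 in the γ+ group. Its γ- level was above the 23/24 level by 0.28 ± 0.08 (limma adjusted p = 0.0308) and its difference from the γ+ level was -1.75 ± 0.08. Oas1b had means of 5.36, 5.52, 6.02 and 6.85 in the same order, with γ- above 23/24 by 0.50 ± 0.10 (limma adjusted p = 0.00701). For Eif2ak2 the means were 7.75, 7.79, 8.11 and 9.13. The median difference from control over the 47 genes was 0.05 in the 23/24 group, 0.15 in the γ- group and 0.74 in the γ+ group. All 3 vector groups had adenovirus, and the part of the virus in these levels was not tested.

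Promoters of 3 of these interferon-induced genes are shown because each holds the paired GAAA core of the interferon-stimulated response element (GAAANNGAAA on either strand), the site of the factors that interferon activates. Sequences are RefSeq's for GRCr8 as above, and capitals mark the matches. The Eif2ak2 promoter is chr6:21940904-21941203, plus strand, with its match 16 bases before the start. The Cxcl10 promoter is chr14:15988816-15989115, plus strand, with its match 243 bases before the start. The Oas1b promoter is chr12:41395803-41396102, minus strand. It holds 2 overlapping matches, which begin 59 and 53 bases before the start, and next to them a match to the MEF2 consensus that begins 40 bases before it. Fgf12, at chr11:85501697-85501996 on the plus strand, is shown because it, Myh1 and Oas1b are the 3 of the 20 largest rises found with a MEF2 match, which begins 195 bases before its start.
Eif2ak2: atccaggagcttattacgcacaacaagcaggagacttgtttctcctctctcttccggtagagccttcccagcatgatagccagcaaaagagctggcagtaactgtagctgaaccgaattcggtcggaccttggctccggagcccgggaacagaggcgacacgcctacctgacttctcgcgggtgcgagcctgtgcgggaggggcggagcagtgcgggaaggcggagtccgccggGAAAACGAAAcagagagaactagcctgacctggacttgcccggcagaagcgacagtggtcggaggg
Cxcl10: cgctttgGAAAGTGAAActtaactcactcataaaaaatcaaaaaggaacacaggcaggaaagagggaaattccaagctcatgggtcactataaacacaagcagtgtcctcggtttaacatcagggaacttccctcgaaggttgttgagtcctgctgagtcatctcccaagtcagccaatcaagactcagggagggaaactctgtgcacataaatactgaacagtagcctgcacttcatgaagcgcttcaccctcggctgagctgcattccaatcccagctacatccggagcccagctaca
Oas1b: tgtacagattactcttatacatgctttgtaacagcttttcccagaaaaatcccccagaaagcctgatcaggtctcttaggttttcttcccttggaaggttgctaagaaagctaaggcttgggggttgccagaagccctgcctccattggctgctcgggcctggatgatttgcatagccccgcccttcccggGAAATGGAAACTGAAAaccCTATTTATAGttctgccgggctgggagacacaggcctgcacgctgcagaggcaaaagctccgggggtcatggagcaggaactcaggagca
Fgf12: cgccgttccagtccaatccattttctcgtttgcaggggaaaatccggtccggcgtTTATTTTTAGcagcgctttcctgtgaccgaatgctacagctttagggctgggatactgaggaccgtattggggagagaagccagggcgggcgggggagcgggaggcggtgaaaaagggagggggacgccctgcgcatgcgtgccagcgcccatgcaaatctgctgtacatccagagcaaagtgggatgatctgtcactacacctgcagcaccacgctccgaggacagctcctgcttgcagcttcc

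Matches to these motifs were counted in all tested genes with a promoter sequence, 8309 of the 10025. The MEF2 consensus was present in 1.41% of them, in 7 of 257 genes called higher (2.72%) and in 2 of 290 called lower (0.69%). The 7 higher genes, named for their match, were Myh1, Oas1b, Fgf12, Ankrd34a, Bcas2, Lrrc39 and Septin1, and the 2 lower ones Srsf3 and Dusp16. The calls of Ankrd34a, Bcas2, Lrrc39, Septin1, Srsf3 and Dusp16 were lost without 3 to 9 of the 12 arrays in turn (limma adjusted p up to 0.17). In the table of all 27457 promoters the share was 3.37%, and among 30 promoters of the listed MEF2 targets it was 26.7%. Mb, Ppargc1a, Myh6 and Sgca had promoter sequences without a match, which says only that these letters are absent from this window. The serum response factor consensus was present in 1.23% of tested genes, 1.95% of those higher and 0.69% of those lower. The GAAA core was present in 3.0% of tested genes, 6.61% of those higher, 2.76% of those lower and 64.9% of the interferon-induced list. In the Oas1b promoter the MEF2 match does not overlap the GAAA matches.

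**Figure D4:**
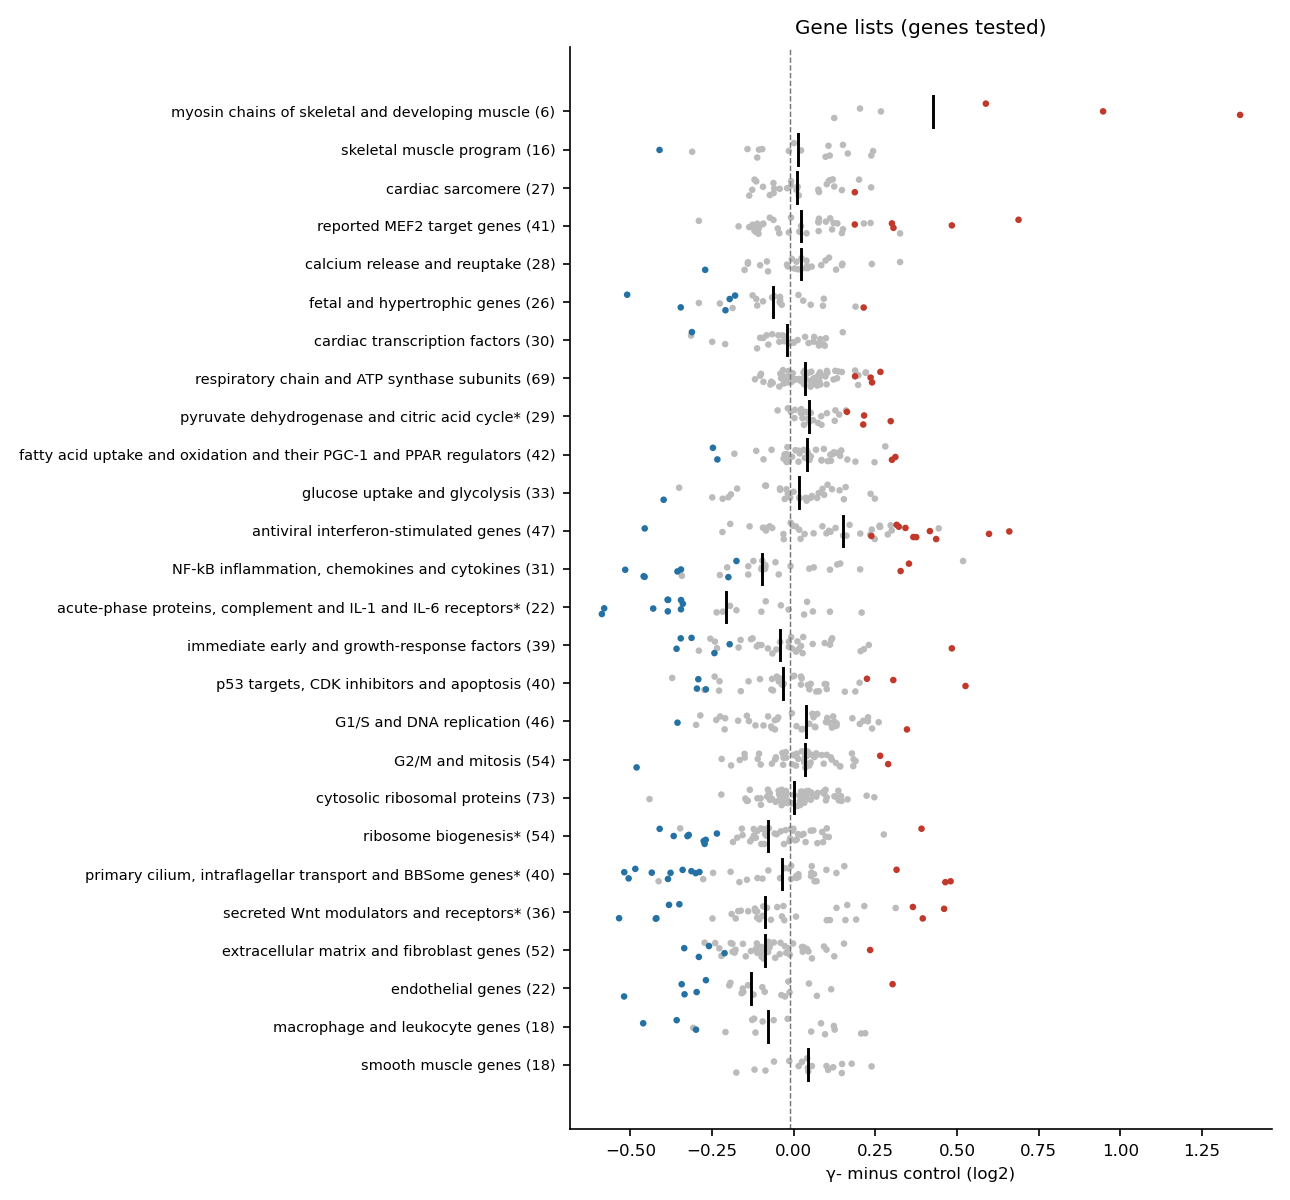
Difference between the γ- and control groups (horizontal axis, log2) for the members of 26 gene lists (rows, with the number of genes tested). Points are genes, red where called higher, blue where called lower and grey otherwise, black bars are list medians, the dashed line is the median of all genes at -0.01, and asterisks mark lists drawn up after the values were seen. The skeletal myosins lie farthest to the right, with a median of 0.43, and the acute-phase list farthest to the left, with a median of -0.21. The skeletal myosins include Myh2, which passed the filter only through the γ- group.

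The respiratory chain genes that were called were all higher. Of 69 respiratory chain and ATP synthase subunits, 4 were called higher and 0 lower, with a median of 0.04. That is 5.8% called, against 6.94% of all genes, of which 3.06% were called higher and 3.88% lower. The 4 were Ndufa2 and Ndufa3 of complex I, Uqcrh of complex III and Cox7c of complex IV (0.19 to 0.27). At an unadjusted limma p under 0.05, 11 of the 69 were higher and 0 lower (15.9%, against 22.8% of all genes). Under median centring 0 of the 69 were called, and with the 6 compared arrays alone 9 were higher. In the pyruvate dehydrogenase and citric acid cycle list, drawn up after the values were seen, 4 of 29 were higher and 0 lower (13.8% called). Dlat, the acetyltransferase of the pyruvate dehydrogenase complex, read 9.85, 9.73 and 9.75 in the control and 9.99, 9.98 and 9.99 in the γ- cultures (0.21 ± 0.06, limma adjusted p = 0.0336). The complex's Pdhx, the malate dehydrogenase Mdh1 and Clybl, an enzyme of itaconate breakdown, differed by 0.22, 0.16 and 0.30. Each of these 8 genes lost its call without 5 to 10 of the 12 arrays in turn, and all but Clybl under median centring.

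Fuel uptake and storage genes were mixed. In fatty acid uptake and oxidation 2 of 42 rose and 2 fell (9.52% called, against 6.94% of all genes). Ppargc1a and Mlycd, the malonyl-CoA decarboxylase, rose, while Ech1, a peroxisomal and mitochondrial isomerase, fell by 0.25 ± 0.06 and Cd36, a fatty acid transporter, by 0.23 ± 0.07. A second Cd36 probe set, at a lower level, differed by 0.19 and was not called, and neither was the mean over both. Of 33 glycolysis genes 1 was called, Pfkfb2, the cardiac regulator of fructose 2,6-bisphosphate, at 6.37, 6.43 and 6.42 in the control and 6.13, 5.96 and 5.93 in the γ- cultures (-0.40 ± 0.09, limma adjusted p = 0.0142). Of 9 genes of oxygen and phosphate storage, Mb rose and Ckmt1, the ubiquitous mitochondrial creatine kinase, fell from 7.38, 7.21 and 7.43 to 6.99, 6.95 and 7.03 (-0.35 ± 0.07, limma adjusted p = 0.00975). Of 26 cholesterol and lipid synthesis genes limma called 0, while 4 had an unadjusted p under 0.05 and 3 were higher with the 6 compared arrays alone. Calls were lost without single arrays for Mlycd (5 of 12, limma adjusted p up to 0.112), Ech1 (6 of 12, up to 0.123), Cd36 (10 of 12, up to 0.188) and Pfkfb2 (3 of 12, up to 0.068).

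Growth and stress signals of the heart muscle were lower more often than higher. Among 26 fetal and hypertrophic genes 5 fell and 1 rose (23.1% called, against 6.94% of all genes), with a median of -0.06. Edn1, the vasoconstrictor and growth signal endothelin-1, read 8.37, 8.33 and 8.32 in the control and 7.84, 7.79 and 7.86 in the γ- cultures (-0.51 ± 0.09, limma adjusted p = 0.00399). Myc, the growth-promoting transcription factor, read 7.24, 7.27 and 7.30 against 6.89, 6.96 and 6.92 (-0.35 ± 0.06, limma adjusted p = 0.00566). Ccn1, a matricellular protein of the early response, fell by 0.20 ± 0.05, and Nfatc3, a target of calcineurin, rose by 0.21 ± 0.06. Rcan1 and Igf1, named after their values were seen, also fell (-0.18 and -0.21), calls lost without 8 of the 12 arrays in turn (limma adjusted p up to 0.158) and under median centring. Among 39 immediate early genes (15.4% called) 5 fell and 1 rose, Nr4a3. The lists overlap, and the falls of Myc and Ccn1 count in both. Mafk, a small Maf factor, fell by 0.36 ± 0.07 and Klf10, a TGFβ-induced zinc finger factor, by 0.31 ± 0.07. Median centring left 2 of the fetal and hypertrophic genes lower and 0 higher. Without single arrays, the calls of Ccn1, Nfatc3 and Klf10 were lost in 5, 7 and 3 of 12 fits (limma adjusted p up to 0.0959, 0.144 and 0.0755).

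BMP, TGFβ and Wnt signalling showed changes in modulators. Of 46 TGFβ and BMP genes 4 fell and 2 rose (13.0% called, against 6.94% of all genes). Smad6, an inhibitor of BMP signalling, read 7.53, 7.53 and 7.45 in the control and 7.07, 7.04 and 7.16 in the γ- cultures (-0.41 ± 0.07, limma adjusted p = 0.0045), while Smad7, a related inhibitor named after its value was seen, rose by 0.32, a call lost without 8 of the 12 arrays in turn (limma adjusted p up to 0.143). Bmp10, a ligand of the heart, fell by 0.44 ± 0.11, Amotl2, a target of the YAP pathway, fell by 0.29 ± 0.07, and the receptor Bmpr2 rose by 0.18 ± 0.04. These last 3 lost their calls without 5, 5 and 6 of the 12 arrays in turn (limma adjusted p up to 0.11, 0.0775 and 0.095). In the Wnt list, drawn up after the values were seen, 5 of 36 fell and 3 rose (22.2% called). Sfrp2, a secreted Wnt antagonist, read 9.19, 9.18 and 9.16 against 8.54, 8.70 and 8.69 (-0.53 ± 0.07, limma adjusted p = 0.000642). Its relative Sfrp4 fell by 0.38 ± 0.09, and Daam1 and Dact2, which act downstream of Wnt receptors, each fell by 0.42. The calls of Sfrp4 and Dact2 were lost without 3 and 2 of the 12 arrays in turn (limma adjusted p up to 0.0731 and 0.0579).

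Cell cycle genes did not move as a group. In G1/S and DNA replication 1 of 46 rose and 1 fell, with a median of 0.04. In G2/M and mitosis 2 of 54 rose and 1 fell, with a median of 0.03. Their shares of 4.35% and 5.56% called lay below the 6.94% of all genes. Ccne2, a cyclin of the step into S phase, read 6.73, 6.63 and 6.79 in the control and 7.13, 6.99 and 7.06 in the γ- cultures (0.35 ± 0.07, limma adjusted p = 0.00728), and Tk1, thymidine kinase, fell by 0.36 ± 0.07. Cdca3, a mitotic regulator, fell by 0.48 ± 0.09, while Plk4, the kinase of centriole duplication, and Ccnf, cyclin F, rose by 0.29 ± 0.07 and 0.26 ± 0.07. Of 27 histone genes 1 was called, H2ax, the variant of damaged chromatin, higher by 0.34 ± 0.06 (limma adjusted p = 0.00274). The calls of Plk4 and Ccnf were lost without 6 and 5 of the 12 arrays in turn (limma adjusted p up to 0.101 and 0.123).

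Among 40 p53 targets, CDK inhibitors and apoptosis genes 3 rose and 3 fell (15.0% called, against 6.94% of all genes). Cdkn1a, the CDK inhibitor p21, read 9.81, 9.57 and 9.62 in the control and 10.21, 10.17 and 10.20 in the γ- cultures (0.53 ± 0.07, limma adjusted p = 0.000822). Mdm2, the ubiquitin ligase of p53, rose by 0.30 ± 0.07, Plk2, a p53-induced kinase, fell by 0.29 ± 0.05, and Cdkn2c, the CDK inhibitor p18, fell by 0.27 ± 0.07. Bcl2l1 and Rrm2b, named after their values were seen, differed by 0.22 and -0.30, calls lost without 7 and 5 of the 12 arrays in turn (limma adjusted p up to 0.155 and 0.136). The γ- level of Cdkn1a was above the 23/24 level of 10.04 by 0.15 (limma adjusted p = 0.186), a difference that did not pass the test. Mdm2, Ccne2, Ccnf and Cxcl10 likewise had γ- means that did not differ from 23/24 at the threshold (limma adjusted p = 0.609, 0.491, 0.952 and 0.317). Cd80, a costimulatory protein, read 7.13, 6.89 and 7.02 in the control and 7.33, 7.46 and 7.38 in the γ- cultures, and its 23/24 mean of 7.38 was within 0.01 of the γ- mean. Its call against control (0.38 ± 0.09, limma adjusted p = 0.0175) was lost without 4 of the 12 arrays in turn (adjusted p up to 0.0783), and it was the one call among 21 antigen presentation genes. The calls of Mdm2 and Cdkn2c were lost without 5 and 4 of the 12 arrays in turn (adjusted p up to 0.0968 and 0.0965).

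Stress response genes changed singly. In heat shock and oxidative stress 3 of 45 fell and 1 rose (8.89% called, against 6.94% of all genes). Nqo1, a quinone reductase, fell by 0.46 ± 0.10, Gsta1, a glutathione transferase, fell from 7.40, 7.18 and 7.40 to 6.85, 6.75 and 6.85 (-0.51 ± 0.07, limma adjusted p = 0.00127), and the metallothionein Mt2A fell by 0.26 ± 0.05, with a second probe set at -0.32. Hspb2, a small heat shock protein of muscle, differed by 0.23. Of 36 genes of the unfolded protein and integrated stress responses, Pdia6 and Chac1 rose and Ddit4 fell (0.24, 0.28 and -0.31), and of 35 autophagy and atrophy genes Fbxo30 and Lamp1 rose (0.23 and 0.19). Of 18 circadian genes 1 was called, the kinase Csnk1d, higher by 0.28 ± 0.05 (limma adjusted p = 0.00501). Calls were lost without single arrays for Nqo1, Hspb2, Pdia6, Chac1, Ddit4, Fbxo30 and Lamp1 (1 to 8 of 12 fits, limma adjusted p up to 0.156).

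Some genes that make ribosomes were lower. In the ribosome biogenesis list, drawn up after the values were seen, 8 of 54 fell and 1 rose, with a median of -0.08. Calls made up 16.7% of that list, against 6.94% of all genes. Rcl1, which acts in cleaving the precursor of ribosomal RNA, read 6.13, 6.19 and 6.07 in the control and 5.76, 5.65 and 5.74 in the γ- cultures (-0.41 ± 0.07, limma adjusted p = 0.00418). Znhit6, an assembly factor of small nucleolar ribonucleoproteins, fell by 0.37 ± 0.08 and Rrp7a by 0.33 ± 0.08, while Rrs1, a factor of the large subunit, rose by 0.39 ± 0.08. Of 73 cytosolic ribosomal proteins limma called 0, with a median of 0.00025. Of these 73, 9 had an unadjusted p under 0.05, and with the 6 compared arrays alone 3 were higher and 2 lower. Of 68 mitochondrial ribosomal proteins 3 rose (Mrps21, Mrpl22 and Mrps18c, 0.26 to 0.30) and 1 fell (Mrpl46, -0.25). Median centring left 3 of the 54 biogenesis genes lower and 1 higher. The calls of Znhit6 and Rrp7a were lost without 2 and 4 of the 12 arrays in turn (limma adjusted p up to 0.0561 and 0.0799), and those of Mrpl22, Mrps18c and Mrpl46 without 4, 6 and 5.

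Splicing and cilium genes held some of the larger falls at moderate levels. Both lists were drawn up after the values were seen. Of 28 SR and related splicing proteins 10.7% were called, against 6.94% of all genes. Here 2 fell, Srsf6 and Srsf3, which bind exons and promote their inclusion. Srsf6 read 8.58, 8.78 and 8.64 in the control and 8.002, 8.133 and 8.137 in the γ- cultures (-0.57 ± 0.10, limma adjusted p = 0.00328). Srsf3 fell by 0.53 ± 0.11 and lost its call without 3 of the 12 arrays in turn (limma adjusted p up to 0.0594), and Rsrc2 rose by 0.31 ± 0.09, lost without 9. Of 40 genes of the primary cilium 10 fell and 3 rose (32.5% called), with a median of -0.04. Bbs10, a chaperonin-like protein, read 5.93, 6.04 and 6.18 against 5.58, 5.48 and 5.53 (-0.52 ± 0.08, limma adjusted p = 0.00171). Nek1, a kinase of the cilium, fell by 0.49 ± 0.09 and Tmem67, of the zone at the base of the cilium, by 0.43 ± 0.09, while Ift43, of the transport machinery within cilia, rose by 0.46 ± 0.07. Tmem67 lost its call without 2 of the 12 arrays in turn (limma adjusted p up to 0.0511), and median centring left 6 lower and 3 higher.

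Markers of other cells were measured beside these results. In bulk cultures fewer cells of a type and less RNA per cell cannot be told apart. All 12 cardiomyocyte markers were well above the filter, with control means from 10.02 to 13.36. Their summed level (log2 of the sum of linear levels) was 15.58 to 15.65 in the control and 15.65 in the γ- group. In the list of extracellular matrix and fibroblast genes, 4 of 52 fell and 1 rose, with a median of -0.09. That is 9.62% called, against 6.94% of all genes. The summed level of that list was 15.84 to 15.87 in the control and 15.77 to 15.79 in the γ- group. Loxl1, an enzyme that cross-links elastin, read 9.71, 9.70 and 9.67 against 9.35, 9.31 and 9.42 (-0.34 ± 0.05, limma adjusted p = 0.00266). Col3a1, Mfap4 and Pdgfrb, with differences of -0.29, -0.26 and -0.21, and Col12a1 (0.23) lost their calls without 4 to 9 of the 12 arrays in turn, and median centring left 1 lower and 1 higher. Of 18 smooth muscle genes limma called 0, while 4 had an unadjusted p under 0.05 and 2 were higher with the 6 compared arrays alone.

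Endothelial genes had 5 of 22 lower and 1 higher (27.3% called, against 6.94% of all genes), with a median of -0.13. Their summed level was 12.08 to 12.14 in the control and 11.94 to 12.03 in the γ- group. Ece1, which converts endothelin to its active form, fell from 8.53, 8.57 and 8.56 to 8.19, 8.18 and 8.30 (-0.33 ± 0.07, limma adjusted p = 0.00814). Tek, the angiopoietin receptor, fell by 0.34 ± 0.09, Sox18, a factor of vessel identity, fell by 0.52 ± 0.11, and Flt1, a VEGF receptor, rose by 0.30 ± 0.07. Macrophage and leukocyte genes had 3 of 18 lower and 0 higher (16.7% called), and a summed level of 10.72 to 10.78 against 10.63 to 10.70. They were Laptm5 (-0.46 ± 0.08), C1qb (-0.36 ± 0.09) and Cd53 (-0.30 ± 0.08), while the defining markers Ptprc, Cd163, Adgre1 and C1qa did not pass the filter. Of 3 red cell genes tested limma called 0, also with the 6 compared arrays alone, and 1 had an unadjusted p under 0.05. The part of these cell types in the falls of Edn1, the chemokines and the acute-phase genes was not tested. Calls were lost without single arrays for Tek, Sox18, Flt1, C1qb and Cd53 (2 to 5 of 12 fits, limma adjusted p up to 0.152), and median centring left 2 endothelial genes lower.

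Genes that set the γ- group apart from both other vectors were Myh1, Gria1, Myh2, Plppr5, Prex2, Mb, Vegfd, Adamts1, Myh3 and Tent5d, chosen as the 10 called in the same direction against control, 23/24 and γ+ whose smallest of the 3 differences was largest. The 3 comparisons share the γ- arrays. The γ- group differed from the 23/24 group in 812 genes (8.1%; 4.16% higher and 3.94% lower in γ-) and from the γ+ group in 6433 genes (64.2%; 37.5% higher and 26.7% lower in γ-). Vegfd had means of 6.62 in the control, 6.58 in the 23/24 group, 7.24 in the γ- group and 4.86 in the γ+ group. Its γ+ level was below control by 1.76 (limma adjusted p = 3.28e-11), so the γ- and γ+ groups lay on opposite sides of the control. The same order held for Mb, with means of 9.64, 9.75, 10.33 and 8.70, and for Adamts1, with means of 7.91, 7.92, 8.50 and 6.72. Gria1 had means of 4.95, 4.97, 5.90 and 4.37. For these 4 genes γ- was above 23/24 and control while γ+ was below control at the threshold. Plppr5, Prex2, Myh2 and Myh3 had the same order, with γ+ below control by 0.30, 0.32, 0.29 and 0.21. Over all genes tested, 38.7% were called lower in γ+ than in control. The γ+ means of Gria1 and Myh2 lie below the filter's level of 4.78, so their order rests on values near background. Gria1 and Myh2 passed the filter only through the γ- group. Outside the 10, Ppargc1a, Sgca and Akap6 were among the genes with that order, with γ+ below control by 0.82, 0.40 and 1.08.

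Other rises were shared with γ+ or were larger there. Cacng6 had means of 5.93 in the control, 5.94 in the 23/24 group, 6.76 in the γ- group and 6.82 in the γ+ group. Fgf12 had means of 5.78, 5.82, 6.49 and 6.35. Of the 20 largest rises 9 were also called higher in γ+ against control and 8 were called lower there. Of the 20 largest falls 19 were called lower in γ+ and 1, Tent5d, was called higher. Over all genes tested, 26.2% were called higher and 38.7% lower in γ+ against control, so 8 of 20 rises called lower is near that share. The counts of rises and falls use the same control arrays on both sides. Among the falls, Cldn9, Pde9a and Ccdc103 passed the filter only through that control group. Tent5d had means of 6.62 in the control, 6.72 in the 23/24 group, 6.03 in the γ- group and 7.16 in the γ+ group. C7 and Hamp, by contrast, were lower in both, at 6.74 and 7.91 in the γ- group and 4.86 and 6.64 in the γ+ group.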

How the data were processed

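Total RNA was hybridised to Affymetrix rat gene arrays, 1 per culture. The authors deposited 1 table of 28826 probe sets by 12 arrays, whose values fit a log2 scale (1.09 to 13.89). The submitters' processing notes name MAS5. No source used here states the background correction, the log base or the normalization. The number of arrays limits the precision.

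A table of platform annotation gave 1 symbol for 15209 probe sets, several for 306 and none for 13311. Probe sets with a mean at or below the 40th percentile of all 12 arrays (4.78) were left out, and a gene was represented by its probe set of highest mean. limma 3.58.1 in R 4.3.3 (lmFit, eBayes with an intensity trend) fitted the 4 group means to the 12 arrays together (8 residual degrees of freedom), with Benjamini-Hochberg adjustment over the 10025 genes, and the procedure was tested on simulated data. Groups came from the sample titles. Genes named were the 20 largest rises and falls whose arrays did not overlap, up to 4 called genes of lowest adjusted p per list (all, where 5 or fewer were called), a fixed set of MEF2 and muscle genes, and 10 genes called alike against all other groups; placeholder symbols were passed over. The members and lists were chosen with earlier results of these data known, and 6 lists after the values were seen. Alternatives covered scaling, filters, probe sets, priors, array weights, arrays fitted, the replicate number and single arrays left out.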

Additional observations from a re-analysis of the deposited data

Results flagged for a closer look

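The probe sets without a gene symbol entered no comparison above. Of 6613 tested, 326 were called between the γ- and control groups (4.93%), 148 higher and 178 lower, beside 4.93% of 10570 probe sets with 1 symbol in the same fit over all probe sets. Probe set 10820223 read 9.66, 9.66 and 9.38 in the control and 11.32, 11.31 and 11.29 in the γ- cultures, a difference of 1.74 ± 0.09 (SE, n = 3, limma adjusted p = 4.25e-07). Its means were 11.22 in the γ+ group and 10.94 in the 23/24 group, above control by 1.65 and 1.37 (limma adjusted p = 3.25e-09 and 8.57e-06), so it was higher with all 3 vectors. Probe set 10812354 was likewise higher with all 3 vectors. It rose by 1.63 ± 0.05 in γ- (limma adjusted p = 5.21e-10). It was above control by 1.34 in γ+ and 1.03 in 23/24 (limma adjusted p = 6.03e-11 and 1.86e-07). In the same fit 23/24 was also above control for probe set 10741778, which carries 2 symbols (0.80, limma adjusted p = 0.00816). Probe set 10732839 read 4.53, 4.20 and 4.38 against 6.09, 6.04 and 6.02, a difference of 1.68 ± 0.11 (limma adjusted p = 5.93e-06). Its control mean of 4.37 lies below the filter's level of 4.78. It had a mean of 6.34 in the γ+ group and 3.83 in the 23/24 group, and the latter did not differ from control at the threshold (limma adjusted p = 0.223). The lowest values were -1.33 for probe set 10700984 and -1.06 for probe set 10799985. The genes of the probe sets without a symbol are not named in the table used here.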

How the results depend on the processing

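The 696 calls (307 higher, 389 lower) became 436 (228 and 208) under median centring, 1363 (565 and 798) without the filter, 425 (196 and 229) with a filter at the 60th percentile, 1745 (732 and 1013) with array weights, 1373 (592 and 781) with the 6 compared arrays alone, 1455 (622 and 833) without the γ+ arrays and 11 (10 and 1) against a minimum change of 0.25 log2. Leaving out each array in turn gave 267 to 1665 calls, 110 to 707 higher and 134 to 958 lower; the largest counts came without γ+ replicate 2. The 812 genes that differed between γ- and 23/24 became 263 to 1838 with single arrays left out, an alternative chosen after seeing the data. The same leave-out, also chosen after seeing the data, moved the 6433 genes between γ- and γ+ by under 1.5 times. Counts from 692 to 835 came from quantile normalization, cyclic loess, a filter on the 6 arrays, means over probe sets, no intensity trend and a robust prior.

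The labels do not say whether the replicate numbers pair the arrays. Deviations of same-numbered control and γ- arrays correlated at 0.04, -0.04 and 0.04, which with 3 arrays per group cannot settle the pairing. A fit with the replicate block gave 514 calls (227 higher, 287 lower). None of the 139 called genes named by rule reversed direction in any alternative run. Of the 8 named by rule that were not called, Mef2b (0.02) changed sign, between -0.05 and 0.08 over the alternatives. Of the 139, 10 kept their calls in every alternative in which they were tested. Of these 10, Plppr5, Cacng6, Mb and Reg3b were tested in 26 alternatives. Myh1, Gria1, Myh2, Prex2, Fgf12 and Cdkl3 were tested in only 25 of the 26. Of the 139, 32 lost their calls under median centring and 22 with the replicate block. The cause of these shifts was not tested. Of 15 called genes with several probe sets above the filter, 6 had the same sign on all of them. Levels near background limit the largest falls.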
